A study of Mus musculus with 50 samples.

Results

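Mouse embryonic stem cells that lack G9a were induced to make the transcription factor Dux, and the response was read in 4 RNA-seq libraries: 2 with doxycycline at dose label 1 (dox1) and 2 without doxycycline (dox0). They were taken by their labels from a table of 32 libraries, 2 for each of 16 groups, in a series of 50. All 4 came from strain TT2, carried the inducible construct the labels call Tet-on-Dux, lacked endogenous Dux (Dux-KO in the genotype field) and lacked G9a (G9a-KO), so the dox0 libraries are Dux-KO and G9a-KO as well. The titles also carry NT, which the labels do not explain, and the dose label has no unit. Every library of the table came from a Tet-on-Dux line, so what doxycycline does by itself cannot be told apart from what the transgene does. The labels do not say whether a line is 1 clone or whether replicates are separate cultures, so p-values measure the spread between libraries only. That spread is pooled over the 16 groups of the table. The 3 lines compared with it at the same dose label were Suv39h1/2-DKO, G9a;Setdb1-DKO and G9a;Suv39h1/2-TKO, each with its own 2 dox1 and 2 dox0 libraries and the same Dux-KO and Tet-on-Dux background. Titles of the Suv39h1/2-DKO and G9a;Suv39h1/2-TKO libraries carry NT as well, while those of the G9a;Setdb1-DKO libraries carry OHT, which no label defines. The comparison of G9a-KO with G9a;Setdb1-DKO therefore sets NT libraries against OHT libraries, besides the difference in genotype. Values of other lines are given without a test: Suv39h1/2;Setdb1-TKO and G9a;Suv39h1/2;Setdb1-QKO at dose label 1, and control and Setdb1-KO at label 0.2. Of their titles, those of control carry NT and the rest OHT. A last comparison uses other libraries of the series, of quadruple knockout cells with and without Dux, whose titles carry OHT.

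Dux is a homeobox transcription factor that is transcribed in the mouse embryo around the 2-cell stage, when the embryonic genome is first read. In cultured embryonic stem cells its expression switches on the 2-cell program: the Zscan4 genes, Usp17-like, Tdpoz, Tcstv and PRAME-related gene families, Zfp352 and the endogenous retrovirus MERVL. G9a, the product of Ehmt2, is a methyltransferase that places mono- and dimethylation on lysine 9 of histone H3, a mark of silenced chromatin, and its loss eases the silencing of part of this program.

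Values are TPM, a relative transcript abundance scaled for length and library, as deposited by the authors, so read depth is not known and the number of libraries limits the precision. Between 11962 and 12471 genes reached 1 TPM in each of the 4 libraries. Differences are log2 fold changes of TPM with a pseudocount of 1 added, dox1 minus dox0, from a limma model over all 32 libraries. A gene was called where its Benjamini-Hochberg adjusted p lay below 0.05 and its log2 fold change reached 1 in either direction. With bulk RNA, more cells in a state and more RNA per cell cannot be told apart. Markers of embryonic stem cells (Pou5f1, Sox2, Nanog, Zfp42 and Esrrb) summed to 2514 and 2932 TPM in dox1 libraries, against 2591 and 2548 TPM in dox0 libraries. Fibroblast markers, which feeder cells would bring, summed to 3.40 and 4.12 TPM in dox1 libraries and to 2.94 and 3.72 TPM in dox0 libraries, with 5 of the 7 below 1 TPM and 1 at 0 in all 4.

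Before any result, the dox1 libraries differed from each other. RNAs that stay in the nucleus and Snhg genes, the hosts of small nucleolar RNAs, were far higher in dox1 replicate 2. Neat1, the RNA scaffold of nuclear paraspeckles, was at 3.03 and 39.6 TPM in dox1 libraries, against 4.54 and 2.47 TPM in dox0 libraries. Snhg3 was at 32 and 275 TPM in dox1 libraries, against 22.2 and 41.2 TPM in dox0 libraries, and Snhg12 at 7.35 and 66.3 TPM in dox1 libraries, against 5.82 and 7.17 TPM in dox0 libraries. In each case dox1 replicate 1 lay close to the dox0 libraries and dox1 replicate 2 stood alone. Snhg7 was at 0.688 and 31.8 TPM in dox1 libraries, against 3.16 and 1.87 TPM in dox0 libraries. Snhg18 differed least, at 2.61 and 2.78 TPM in dox1 libraries, against 2.18 and 2.12 TPM in dox0 libraries. All 14 Snhg genes tested were highest in dox1 replicate 2, by 1.07 to 12.4 times over the next library in the 13 with a value above 0 elsewhere. The mean log2 level of the 14 Snhg genes was 4.94 in dox1 replicate 2 and 2.79 in dox1 replicate 1, against 2.87 and 2.86 in dox0 libraries. Of the 32 libraries of the table, 6 had a mean above 4, and 1 of these was dox1 replicate 2 of the G9a-KO line. None of the nuclear-retained and Snhg genes was called, with 0 of 19 higher, a median log2 fold change of 1.22 and a median of -0.02 without dox1 replicate 2. At an unadjusted p below 0.05 the limma count was also 0. The list summed to 361 and 1265 TPM in dox1 libraries, against 424 and 522 TPM in dox0 libraries, with 1 of its 21 genes in the table at 0 in all 4. Results that rest on dox1 replicate 2 are therefore also given without the 6 libraries, a setting chosen after the data were seen, which leaves dox1 replicate 1 to stand for the induced cells and assumes that it varies like the other groups. The part of this library difference in each response was not tested.

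The transgene rose to almost the same level in both dox1 libraries. TetOnDux was at 55.5 and 58.0 TPM in dox1 libraries, against 3.63 and 2.90 TPM in dox0 libraries (log2 fold change 3.77, SE 0.364, adjusted p = 1.42e-06, limma with Benjamini-Hochberg adjustment). Endogenous Dux has no row in this table. The reporter row MERVL-sfGFP, by its name a green fluorescent protein linked to the MERVL retrovirus, was at 96.9 and 227 TPM in dox1 libraries, against 34.2 and 29.6 TPM in dox0 libraries. Both dox1 libraries stood above both dox0 libraries, with replicate 2 above replicate 1 (log2 fold change 2.19, SE 0.387, adjusted p = 0.00280, and adjusted p = 0.00489 without the 6 libraries high in nuclear RNA). Without dox1 replicate 2 alone the call of the reporter was lost (log2 fold change 1.58, adjusted p = 0.141), and it was also lost without dox0 replicate 2. Ehmt2 (chr17:34898469-34914052, mm10), the deleted gene, was at 2.56 and 5.58 TPM in dox1 libraries, against 3.25 and 2.40 TPM in dox0 libraries. In the control line without doxycycline it was at 109.6 and 129 TPM, so transcripts of Ehmt2 were low in all 4 G9a-KO libraries, and no difference with doxycycline was called (log2 fold change 0.35, SE 0.323, adjusted p = 0.861).

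**Figure D1:**
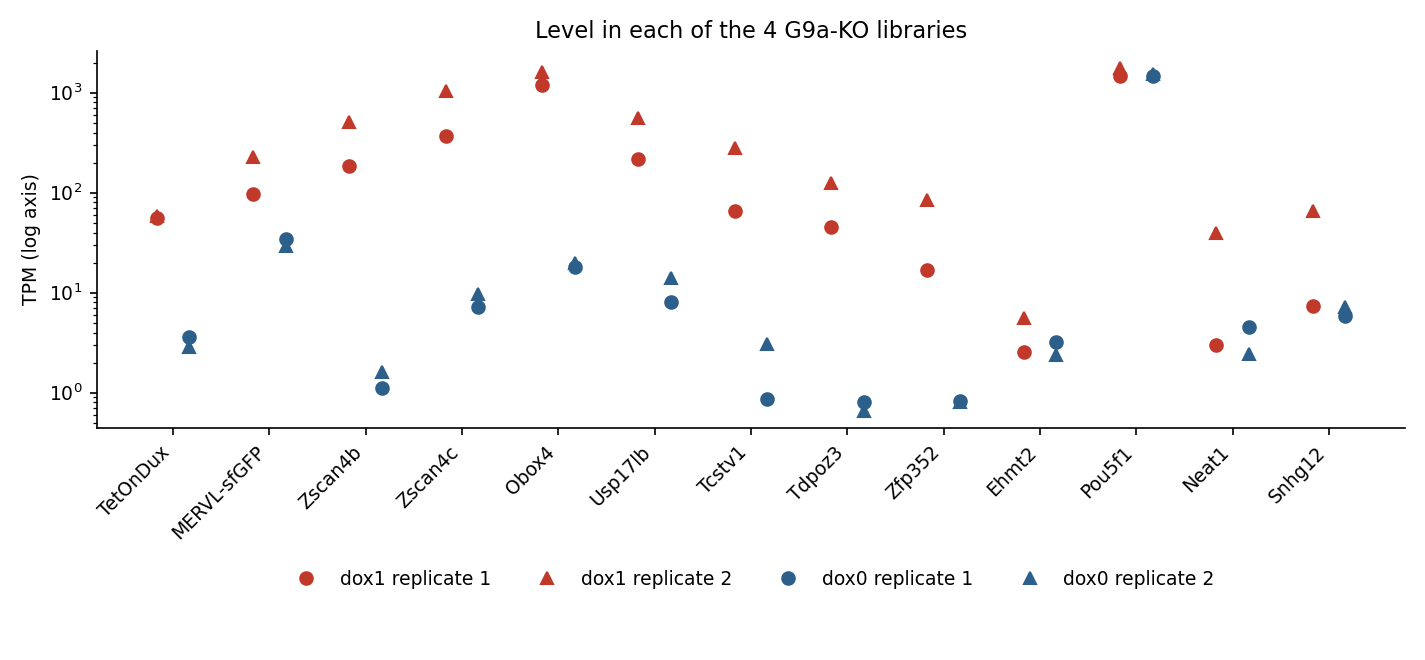
TPM on a log axis in each of the 4 G9a-KO libraries for 13 transcripts, dox1 libraries in red and dox0 libraries in blue, circles for replicate 1 and triangles for replicate 2. TetOnDux lies at 55.5 and 58.0 TPM in the dox1 libraries, the 2-cell genes in between are higher in replicate 2, Pou5f1 is level, and Neat1 and Snhg12 are high in dox1 replicate 2 only.

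Dux induction was followed by a rise of 132 features, 130 genes and the 2 constructs, out of 13819 tested (0.955%), and by a fall of 2 (0.0145%). All 132 had dox1 libraries that lay wholly above the dox0 libraries, and in 122 of the 130 genes the lower dox1 library was at least 2 times the higher dox0 library. The calls were made on these same libraries, so this separation describes them and is no further support. The rises were large, with a median log2 fold change of 3.03, and 68 of the 132 reached 3 or more. They started from little: the median level of these features was 29.7 TPM in dox1 libraries, against 1.63 TPM in dox0 libraries, where the median over all tested features was 12.2 TPM. In dox0 libraries 51 of the 132 averaged below 1 TPM, so those passed the filter on low values only through libraries with more of them. The 130 genes made up 0.894% and 2.79% of all TPM in dox1 libraries, against 0.0798% and 0.113% in dox0 libraries. Of the 132, 129 were higher in dox1 replicate 2 than in dox1 replicate 1. As follows from the lack of overlap, all 132 were above the dox0 mean in dox1 replicate 1 alone. In 118 of them that log2 fold change was at least 1. Without the 6 libraries high in nuclear RNA, 132 were again higher (0.955%), 110 of them shared, and 19 were lower (0.137%). With dox1 replicate 2 alone left out, 68 were higher, 64 of them shared. The count was 75 without dox0 replicate 1, 91 without dox0 replicate 2 and 281 without dox1 replicate 1. In a fit on the 4 libraries alone, which leaves 2 residual degrees of freedom, it was 11.

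**Figure D2:**
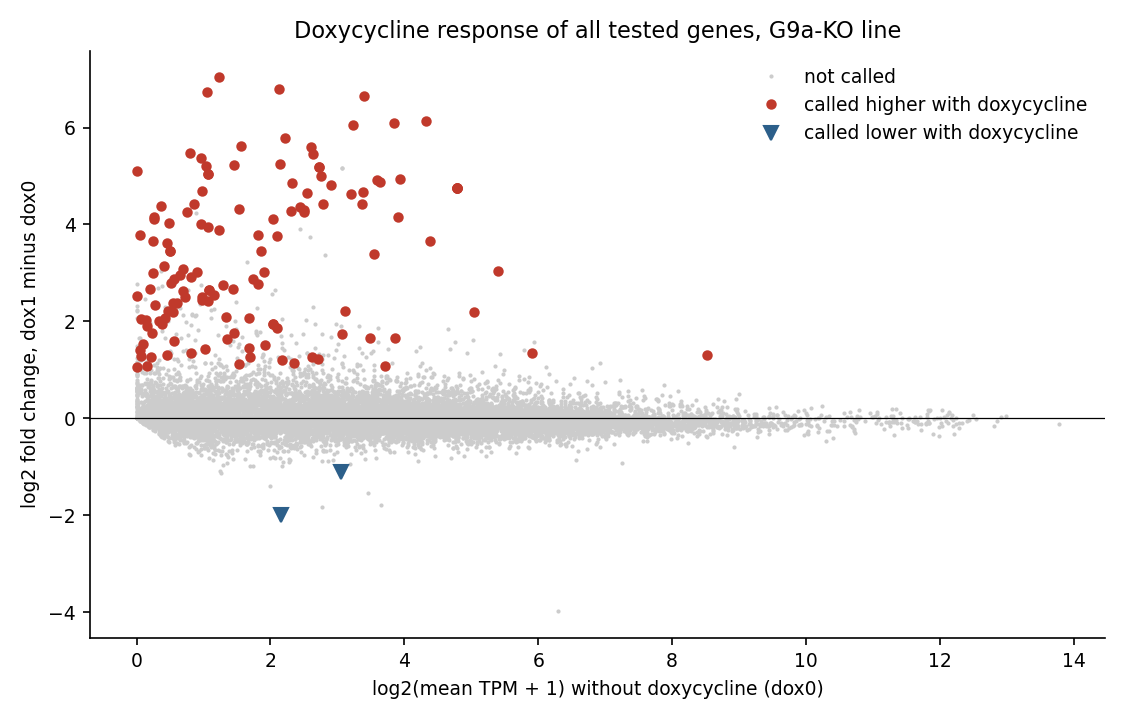
Log2 fold change (dox1 minus dox0) of every tested feature against its mean level without doxycycline as log2(TPM + 1), with 132 features called higher in red and 2 called lower in blue. The called rises sit mostly at the left, where levels without doxycycline are low, up to a log2 fold change of 7.03.

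**Figure D3:**
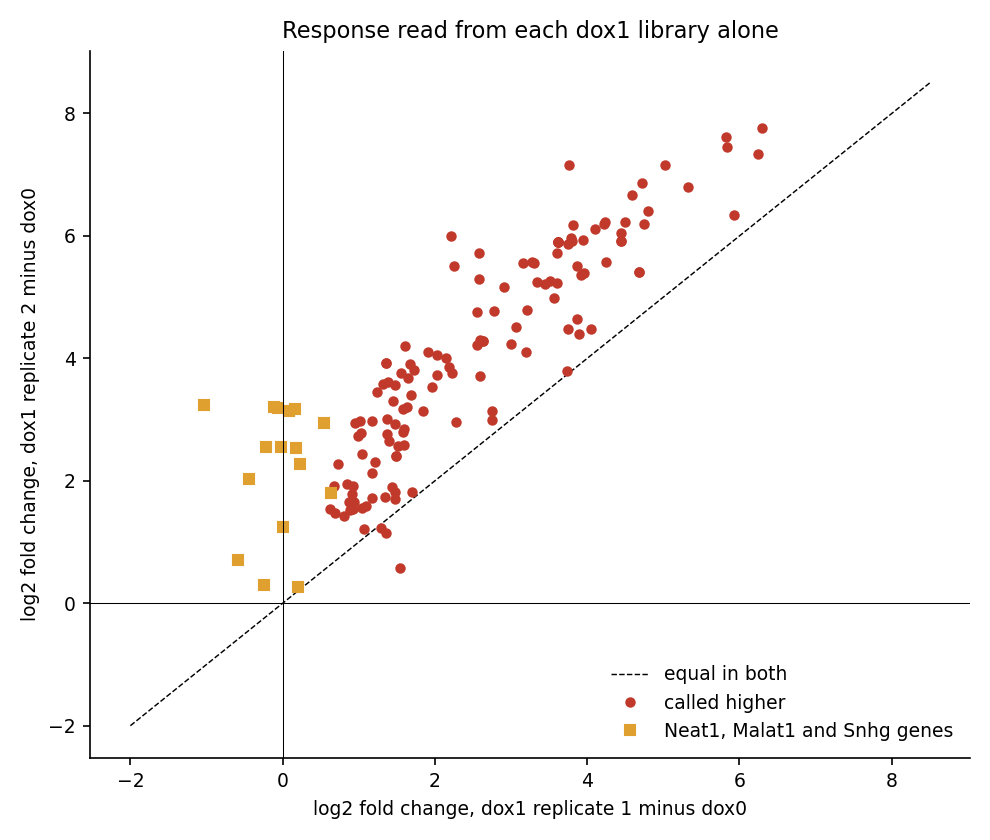
Log2 fold change over the dox0 libraries read from dox1 replicate 2 alone (vertical) against dox1 replicate 1 alone (horizontal), for the 132 features called higher (red) and for Neat1, Malat1 and Snhg genes (yellow). All 132 are above 0 on both axes and 129 lie above the line of equality, while the nuclear and Snhg RNAs lie between -1.03 and 0.63 for replicate 1 and reach 3.25 for replicate 2.

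Zscan4 genes, which encode zinc finger proteins of the 2-cell embryo that act on telomeres, rose most. All 5 tested of the 9 listed were higher, with a median log2 fold change of 6.64, against 0 over all tested features, and all 5 were also higher without the 6 libraries high in nuclear RNA. They lie in a cluster on chromosome 7. Zscan4b (chr7:10900740-10905050) was at 183 and 508 TPM in dox1 libraries, against 1.11 and 1.59 TPM in dox0 libraries. The mean of the dox1 libraries was 256 times that of the dox0 libraries (log2 fold change 7.03, SE 0.486, adjusted p = 9.74e-09). Zscan4a (chr7:10794242-10799057) was at 117 and 407 TPM in dox1 libraries, against 0.944 and 1.22 TPM in dox0 libraries (log2 fold change 6.72, SE 0.413, adjusted p = 1.50e-09). Zscan4f (chr7:11397915-11402318), the most abundant of the family after induction, was at 598 and 1845 TPM in dox1 libraries, against 9.37 and 9.67 TPM in dox0 libraries (log2 fold change 6.64, SE 0.470, adjusted p = 1.22e-08). In these 2 genes, too, both dox1 libraries stood far above both dox0 libraries. Zscan4c (chr7:11005745-11010547) was at 372 and 1034 TPM in dox1 libraries, against 7.16 and 9.66 TPM in dox0 libraries (log2 fold change 6.06, SE 0.429, adjusted p = 1.22e-08), and Zscan4d (chr7:11161374-11166159) at 161 and 438 TPM in dox1 libraries, against 9.41 and 9.39 TPM in dox0 libraries (log2 fold change 4.68, SE 0.414, adjusted p = 4.12e-07). Copies of these genes are near identical and reads may have been assigned to the wrong copy, so here and in the families that follow each name is uncertain between copies. Over all features 132 of 13819 (0.955%) were higher, the share against which the count of each family stands.

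Usp17-like genes encode deubiquitinases, enzymes that remove ubiquitin from proteins, and all 5 listed members were tested and higher, with a median log2 fold change of 4.15 and the same 5 without the 6 libraries high in nuclear RNA. Usp17lb (chr7:104840257-104842603) was at 219.8 and 556 TPM in dox1 libraries, against 8.09 and 13.9 TPM in dox0 libraries (log2 fold change 4.91, SE 0.447, adjusted p = 6.25e-07). Usp17lc was at 125 and 389.5 TPM in dox1 libraries, against 8.91 and 9.84 TPM in dox0 libraries, and Usp17la, the most alike between the dox1 libraries of these 3, at 218 and 312 TPM in dox1 libraries, against 16.7 and 11.3 TPM in dox0 libraries. The groups did not overlap in any of them. Usp17ld was at 52.7 and 87.9 TPM in dox1 libraries, against 3.94 and 2.24 TPM in dox0 libraries, with log2 fold changes of 4.42, 4.15 and 4.11 for Usp17lc, Usp17la and Usp17ld and adjusted p of 2.29e-05, 2.57e-09 and 8.65e-08.

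Tdpoz genes encode proteins with TRAF and POZ domains, and 4 of 5 tested, of 8 listed, were higher, with a median log2 fold change of 3.62. Tdpoz3 (chr3:93826020-93827117) was at 45.5 and 126 TPM in dox1 libraries, against 0.808 and 0.656 TPM in dox0 libraries (log2 fold change 5.47, SE 0.451, adjusted p = 1.54e-07). Tdpoz4 (chr3:93796398-93797510) was at 4.51 and 75.2 TPM in dox1 libraries, against 0.0794 and 0.315 TPM in dox0 libraries. Its rise came mostly from dox1 replicate 2 (log2 fold change 4.1, SE 0.868, adjusted p = 0.0167), and without that library alone the adjusted p was 0.404, against 0.000793 without all 6 libraries high in nuclear RNA. Tdpoz1 was at 10 and 25 TPM in dox1 libraries, against 0.325 and 0.431 TPM in dox0 libraries (log2 fold change 3.62, SE 0.342, adjusted p = 1.10e-06). Tdpoz5, whose values are identical to those of Gm10697 in every library, was at 4.38 and 31.0 TPM in dox1 libraries, against 1.02 and 1.20 TPM in dox0 libraries (log2 fold change 2.64, SE 0.592, adjusted p = 0.0275). Tdpoz2 was not called, at 0.788 and 8.81 TPM in dox1 libraries, against 0 and 0.207 TPM in dox0 libraries (adjusted p = 0.108). Without dox1 replicate 2 the Tdpoz count was 2 of 5, and without the 6 libraries it was 4 of 5.

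Obox genes are homeobox genes of oocytes and early embryos. Obox4, which has no position under that name in the annotation used here, had the smallest adjusted p of the response. It was at 1208 and 1617 TPM in dox1 libraries, against 18 and 19.8 TPM in dox0 libraries. The dox1 libraries were close to each other, and their mean was 74.6 times that of the dox0 libraries (log2 fold change 6.13, SE 0.265, adjusted p = 1.20e-11). Obox3 (chr7:15479825-15639902) was at 1.77 and 10.9 TPM in dox1 libraries, against 0 and 0 TPM in dox0 libraries, listed at 0 in both dox0 libraries, and was called higher (adjusted p = 0.00122). Of the Obox genes, 2 of 4 tested, of 9 listed, were higher and the median log2 fold change was 1.56. Obox6 was at 12.3 and 14.1 TPM in dox1 libraries, against 10.7 and 9.19 TPM in dox0 libraries and Obox2 at 0.110 and 1.06 TPM in dox1 libraries, against 0 and 0 TPM in dox0 libraries, and neither was called (adjusted p = 0.760 and 0.396).

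Tcstv genes, which are transcribed in 2-cell-like cells, and genes related to PRAME, a family of leucine-rich proteins expressed in germ cells and early embryos, formed a mixed group. Of 15 tested of 31 listed, 8 were higher and 0 lower, with a median log2 fold change of 2.02. Tcstv1 (chr13:119893388-119894785) was at 65.0 and 279 TPM in dox1 libraries, against 0.870 and 3.05 TPM in dox0 libraries (log2 fold change 5.63, SE 0.551, adjusted p = 1.60e-06), and Tcstv3 (chr13:120316878-120318178) at 44.7 and 239.7 TPM in dox1 libraries, against 2.60 and 6.27 TPM in dox0 libraries (log2 fold change 4.36, SE 0.719, adjusted p = 0.00131). BB287469 was at 98.0 and 429 TPM in dox1 libraries, against 4.97 and 8.03 TPM in dox0 libraries (log2 fold change 4.81, SE 0.535, adjusted p = 9.30e-06). In all 3, dox1 replicate 2 was the highest library and dox1 replicate 1 the next. Pramef25 was at 55.2 and 209 TPM in dox1 libraries, against 3.55 and 5.74 TPM in dox0 libraries (log2 fold change 4.30, SE 0.603, adjusted p = 0.000206). Of the members not called, AU018091 was at 92.2 and 70.5 TPM in dox1 libraries, against 107 and 73.4 TPM in dox0 libraries, and Pramel6 at 23.4 and 68.5 TPM in dox1 libraries, against 14.2 and 34.3 TPM in dox0 libraries. Here 8 were also higher without the 6 libraries and 4 without dox1 replicate 2 alone.

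Predicted multicopy genes, known mainly by model names, followed the named families. Of 23 tested of 29 listed, 18 were higher and 0 lower, with a median log2 fold change of 4.76. They summed to 2481 and 11062 TPM in dox1 libraries, against 116 and 252 TPM in dox0 libraries, more than the named Zscan4 genes (1431 and 4233 TPM in dox1 libraries, 28.0 and 31.5 TPM in dox0 libraries). Sums over copies with identical values may count shared reads more than once. Gm4340 (chr10:104194042-104196522) was at 170.0 and 750.0 TPM in dox1 libraries, against 0 and 26.8 TPM in dox0 libraries (log2 fold change 6.09, SE 1.09, adjusted p = 0.00302), and Gm13043 (chr4:143511343-143517831) at 60.2 and 185 TPM in dox1 libraries, against 6.81 and 0.00345 TPM in dox0 libraries (log2 fold change 5.25, SE 1.02, adjusted p = 0.00741). The dox0 libraries disagreed in both genes, and both lost their call without the 6 libraries high in nuclear RNA (adjusted p = 0.0543 and 0.0940). Gm4027 was at 107 and 472 TPM in dox1 libraries, against 1.44 and 5.84 TPM in dox0 libraries (log2 fold change 5.79, SE 0.710, adjusted p = 3.38e-05), and Gm5039 at 147 and 449 TPM in dox1 libraries, against 2.13 and 7.99 TPM in dox0 libraries (log2 fold change 5.6, SE 0.531, adjusted p = 1.10e-06). Gm21312, whose values equal those of Gm20765, had a dox0 library at 0 and another at 14.8 TPM and was not called, nor was Gm428 (adjusted p = 0.216 and 0.130). In the predicted group 16 were higher without the 6 libraries and 12 without dox1 replicate 2 alone. Of all 132 higher features, 55 carried predicted names and 14 had values identical to another gene.

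Genes listed as single-copy and linked to the 2-cell state or to Dux were less uniform, and the list also holds related copies such as Duxbl2 and Duxbl3. Of 30 tested of 34 listed, 7 were higher and 0 lower, with a median log2 fold change of 1.49. Zfp352 (chr4:90218820-90225702), a zinc finger gene used as a marker of 2-cell-like cells, was at 17 and 84.4 TPM in dox1 libraries, against 0.827 and 0.806 TPM in dox0 libraries (log2 fold change 4.43, SE 0.521, adjusted p = 1.95e-05). Tmem92 (chr11:94777217-94782703), which encodes a transmembrane protein, was at 17.2 and 53.3 TPM in dox1 libraries, against 0.894 and 1.02 TPM in dox0 libraries (log2 fold change 4.0, SE 0.408, adjusted p = 2.86e-06). Ubtfl1 (chr9:18404418-18413177), a relative of the nucleolar factor Ubtf, was at 7.68 and 22.7 TPM in dox1 libraries, against 0 and 0.0783 TPM in dox0 libraries (log2 fold change 3.79, SE 0.369, adjusted p = 1.56e-06). The dox1 libraries lay clear of the dox0 libraries in all 3, and all 3 were called without the 6 libraries high in nuclear RNA. Duxbl2 and Duxbl3, Dux-related homeobox genes with identical values, were at 10.5 and 20.7 TPM in dox1 libraries, against 3.11 and 3.10 TPM in dox0 libraries (log2 fold change 1.94, SE 0.383, adjusted p = 0.00831). They count as 2 of the 7 calls but are 1 measurement. Nelfa, a subunit of the negative elongation factor that can itself activate Dux, was at 101 and 333 TPM in dox1 libraries, against 61.2 and 60.0 TPM in dox0 libraries, and dox1 replicate 1 alone was 1.67 times the dox0 mean. It was not called (adjusted p = 0.0789), and neither was P4ha2 at 65.7 and 134 TPM in dox1 libraries, against 63.6 and 116 TPM in dox0 libraries. Without the 6 libraries 9 of the 30 were higher, and without dox1 replicate 2 alone 4 were. Taking the 7 lists of 2-cell genes as 1 set of 87 tested genes, 49 were higher and 0 lower, against 132 and 2 of all 13819 features (0.955% and 0.0145%). The median log2 fold change of the set was 2.76, and 1.68 without the 6 libraries. The lists were chosen with earlier results of these data known, so these counts are no independent support.

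**Figure D4:**
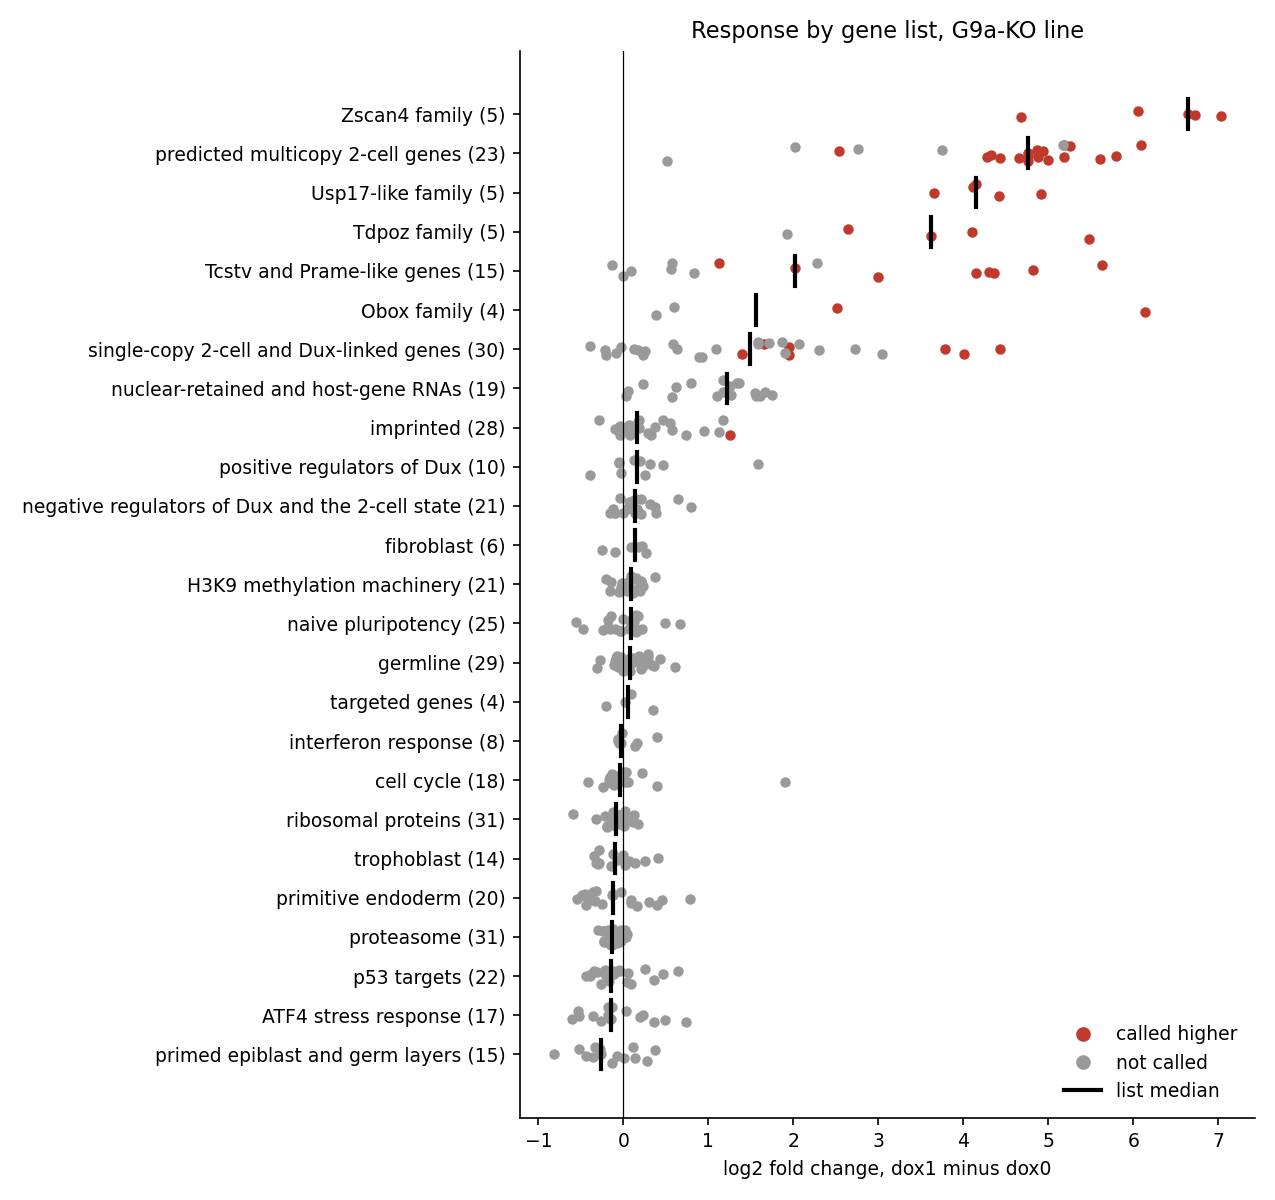
Log2 fold change (dox1 minus dox0) of each tested gene by list, with the number tested in parentheses, called genes in red, uncalled genes in grey and the list median as a black bar. The 7 lists of 2-cell genes lie at the top with medians from 1.49 to 6.64, the nuclear-retained RNAs follow at 1.22 with no call, and the medians of the other lists lie between -0.27 and 0.16.

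Only Lypd2 and Pwwp2b were lower. Lypd2 (chr15:74732247-74734329), of the Ly6 and uPAR family of surface proteins, was at 0 and 0 TPM in dox1 libraries, against 5.40 and 1.48 TPM in dox0 libraries. It was listed at 0 in both dox1 libraries, and its call (adjusted p = 0.0209) was lost when dox1 replicate 2 alone was left out (adjusted p = 0.161). Pwwp2b (chr7:139248482-139269903), which encodes a chromatin-binding protein with a PWWP domain, was at 1.69 and 4.36 TPM in dox1 libraries, against 6.09 and 8.48 TPM in dox0 libraries (log2 fold change -1.11, SE 0.239, adjusted p = 0.0194), with both dox1 libraries below both dox0 libraries. Without dox1 replicate 1 neither gene was called (adjusted p = 0.0655 for Lypd2 and 0.256 for Pwwp2b), and the call of Lypd2 was also lost without dox0 replicate 1 and that of Pwwp2b without dox0 replicate 2. Without the 6 libraries high in nuclear RNA 19 genes were lower, the same 2 among them, and several of the added genes were low in dox1 replicate 1 but not in dox1 replicate 2. Atf3, a stress-responsive transcription factor, was at 0.978 and 7.04 TPM in dox1 libraries, against 3.37 and 6.57 TPM in dox0 libraries, so the dox1 libraries disagreed in it and the groups overlapped.

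Of the 130 higher genes 81 were on none of the 7 lists of 2-cell genes. The other lists held 1 call, that of Magel2. Over all tested features 0.955% were called higher, so the absence of calls in lists of this size says little about them. None of 25 naive pluripotency genes was called (median log2 fold change 0.09). Pou5f1, which encodes the stem cell factor Oct4, was at 1475 and 1771 TPM in dox1 libraries, against 1471 and 1547 TPM in dox0 libraries, and Dppa5a at 3535 and 4233 TPM in dox1 libraries, against 3913 and 4357 TPM in dox0 libraries. The groups overlapped in both. None of the 21 negative regulators of Dux and the 2-cell state was called (median 0.14), among them Trim28, a corepressor of retroviruses, at 1292 and 1193 TPM in dox1 libraries, against 1131 and 1027 TPM in dox0 libraries, and Sumo2, at 1055 and 1003 TPM in dox1 libraries, against 1068 and 1229.8 TPM in dox0 libraries. None of the 10 positive regulators of Dux was called (median 0.16), and Trp53 and Kdm5b, the most abundant, had adjusted p of 0.986 and 0.982. The H3K9 methylation machinery (0 of 21, median 0.09) gave no call, and Setdb1, a further methyltransferase, was at 42.7 and 44.7 TPM in dox1 libraries, against 48.7 and 38.1 TPM in dox0 libraries, with Suv39h1 at 15.9 and 18.5 TPM in dox1 libraries, against 16 and 16.2 TPM in dox0 libraries and Cbx3, an HP1 protein that reads the mark, at 247 and 305 TPM in dox1 libraries, against 297 and 314 TPM in dox0 libraries.

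Lineage genes gave no call either: 0 of 15 primed epiblast and germ layer genes (median -0.27), 0 of 20 primitive endoderm genes (median -0.12) and 0 of 14 trophoblast genes (median -0.10). At the shares called over all features (0.955% higher and 0.0145% lower), lists as short as those here would hold few calls or none. Their most abundant members, Dnmt3b and Lefty1, Sparc and Lamc1, and Peg10 and Igf2bp3, had adjusted p between 0.871 and 0.984. The stress, cell cycle, housekeeping, germline and fibroblast lists also had no call, with 0 of 22 p53 targets (median -0.14), 0 of 17 ATF4 targets (median -0.15), 0 of 8 interferon response genes (median -0.03), 0 of 18 cell cycle genes (median -0.04), 0 of 31 ribosomal protein genes (median -0.09), 0 of 31 proteasome genes (median -0.13), 0 of 29 germline genes (median 0.08) and 0 of 6 fibroblast genes (median 0.13). Without adjustment, a limma p below 0.05 was reached by 5 of the p53 targets, by 2 each of the positive regulators, trophoblast, ATF4 and proteasome genes, by 1 each of the naive pluripotency, primitive endoderm, cell cycle and ribosomal protein genes and by 0 in the other lists with no call, against 1204 of all 13819 features. The p53 targets Bax, which drives cell death, and Ccng1 were at 441 and 426 TPM in dox1 libraries, against 504 and 489.7 TPM in dox0 libraries, and at 114 and 161 TPM in dox1 libraries, against 144 and 161 TPM in dox0 libraries. Bax was lower in both dox1 libraries than in both dox0 libraries, by less than the threshold (adjusted p = 0.565). Atf4 was at 278 and 417 TPM in dox1 libraries, against 321 and 275 TPM in dox0 libraries, and the interferon-induced Ifitm3 at 233 and 234 TPM in dox1 libraries, against 249 and 237 TPM in dox0 libraries. Of 28 imprinted genes, 1 was higher (median 0.16): Magel2, at 1.11 and 2.64 TPM in dox1 libraries, against 0.205 and 0.113 TPM in dox0 libraries (log2 fold change 1.26, SE 0.258, adjusted p = 0.0122), whose log2 fold change was 0.87 without dox1 replicate 2. No mitochondrially encoded gene had a row in the table.

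Of the 127 higher genes with a position in GENCODE M21 (GRCm38, the assembly of mm10), 72 (56.7%) lay within 1 Mb of another, and of the 13177 tested genes not called higher, 947 (7.19%) lay within 1 Mb of a higher gene. Chromosome 4 held 17 (13.4% of the higher genes and 6.55% of the tested genes), chromosome 7 held 16 (12.6% and 7.97%), chromosome 13 held 14 (11% and 3.88%), chromosome 12 held 13 (10.2% and 3.45%), chromosome 3 held 12 (9.45% and 4.53%), chromosome 5 held 10 (7.87% and 6.37%) and chromosome 10 held 9 (7.09% and 4.88%), while chromosome X held 0 of its 521 tested genes. Near-identical copies in tandem share sequence, and in part values, so neighbours are not independent.

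Promoters were read for the core of the motif that Dux is known to bind, GATTNAATC, which reads the same on both strands, so each match counts once. The window was 250 bases before to 50 bases after each RefSeq start (GRCm38.p6), and 70 of the 132 higher features had an entry. The motif stood in 8 of these 70 genes (11.4%), against 28 of 10438 tested genes with an entry, the 8 among them (0.268%), and 88 of all 32851 promoters (0.268%). The 8 are Gm4340, Gm21293, Gm21304 and Gm8764 on chromosome 10, Gm13043, Gm13040 and Gm13057 on chromosome 4 and AF067061 on chromosome 13, with 5 distinct windows among them, so they are not 8 separate cases. Neither lower gene had an entry. The entries of Zscan4b, Zscan4c, Zscan4d, Zscan4f, Usp17la, Usp17lb, Usp17lc, Usp17ld and Zfp352 hold no such letters in this window. The windows of Gm4340, Gm13043 and AF067061 are shown because they stand for the 3 chromosomes, chosen after the matches were seen, all on the plus strand, 5′ to 3′, with the motif in capitals. Its first base lies -146, -136 and -125 bases from the start in Gm4340 (chr10:104193792-104194091), Gm13043 (chr4:143511093-143511392) and AF067061 (chr13:120262845-120263144).
Gm4340: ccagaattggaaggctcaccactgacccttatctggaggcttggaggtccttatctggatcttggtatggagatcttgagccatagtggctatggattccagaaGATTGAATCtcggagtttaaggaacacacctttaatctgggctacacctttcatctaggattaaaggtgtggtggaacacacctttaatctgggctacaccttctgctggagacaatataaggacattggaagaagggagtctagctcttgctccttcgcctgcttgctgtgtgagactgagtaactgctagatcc
Gm13043: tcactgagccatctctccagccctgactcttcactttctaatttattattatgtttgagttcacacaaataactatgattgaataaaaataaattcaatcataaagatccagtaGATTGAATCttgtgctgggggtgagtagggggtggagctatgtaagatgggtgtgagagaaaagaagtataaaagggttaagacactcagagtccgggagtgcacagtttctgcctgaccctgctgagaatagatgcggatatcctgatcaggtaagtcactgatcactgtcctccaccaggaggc
AF067061: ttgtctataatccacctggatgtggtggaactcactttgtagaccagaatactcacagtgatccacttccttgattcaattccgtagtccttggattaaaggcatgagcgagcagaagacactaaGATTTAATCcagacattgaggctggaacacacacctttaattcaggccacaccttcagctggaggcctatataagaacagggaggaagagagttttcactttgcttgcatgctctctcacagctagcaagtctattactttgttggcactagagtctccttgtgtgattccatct
The 3 matches differ around the shared core. Levels of Gm4340 and Gm13043 are given with the predicted genes. AF067061, of the Tcstv and PRAME-related list, was at 6.02 and 61.3 TPM in dox1 libraries, against 0 and 0.390 TPM in dox0 libraries (log2 fold change 4.15, SE 0.721, adjusted p = 0.00235). A match describes these letters and shows no binding.

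The response was set against 3 of the 5 other lines at the same dose label by a test. Of the dox1 libraries of all these lines, only replicate 2 of G9a-KO (mean log2 Snhg level 4.94) and of G9a;Setdb1-DKO (4.56) was high in nuclear RNA. The part of this in the counts that follow was not tested. Of 13819 features, 60 were higher with doxycycline in Suv39h1/2-DKO (0.434%), 105 in G9a;Setdb1-DKO (0.76%) and 69 in G9a;Suv39h1/2-TKO (0.499%). Of these, 46, 90 and 65 were among the 132 of the G9a-KO line, that is 34.8%, 68.2% and 49.2% of the G9a-KO list and 76.7%, 85.7% and 94.2% of the other lists. Of the 2 lines not tested against, Suv39h1/2;Setdb1-TKO had 35 higher, 31 of them on the G9a-KO list, and G9a;Suv39h1/2;Setdb1-QKO had 54, with 51 on it. The transgene was present in all: TetOnDux was at 55.5 and 58.0 TPM in G9a-KO, 59.2 and 71.5 TPM in Suv39h1/2-DKO, 39.6 and 40.4 TPM in G9a;Setdb1-DKO and 32.6 and 48.4 TPM in G9a;Suv39h1/2-TKO dox1 libraries. The reporter was at 96.9 and 227 TPM in dox1 and 34.2 and 29.6 TPM in dox0 libraries of G9a-KO, and at 21.6 and 28.7 TPM in dox1 and 8.56 and 9.44 TPM in dox0 libraries of Suv39h1/2-DKO. In G9a;Setdb1-DKO it was at 109 and 283 TPM in dox1 and 101 and 96.3 TPM in dox0 libraries, and in G9a;Suv39h1/2-TKO at 76.4 and 90.4 TPM in dox1 and 53.1 and 47.7 TPM in dox0 libraries. The difference of its response from the G9a-KO line was not called against any of the 3 (adjusted p = 0.997, 0.753 and 0.993).

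**Figure D5:**
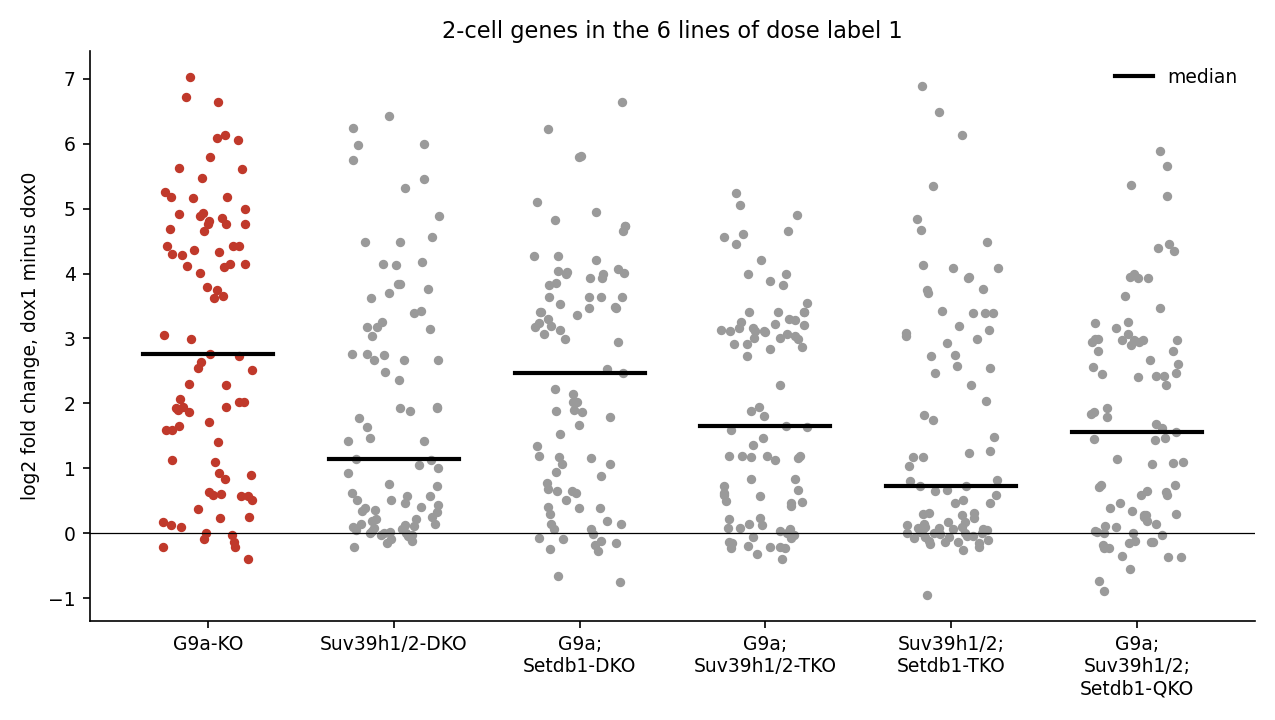
Log2 fold change (dox1 minus dox0) of the 87 tested genes of the 7 lists of 2-cell genes in the G9a-KO line (red) and the 5 other lines at dose label 1 (grey), with the median of each as a black bar. The medians are 2.76 in G9a-KO, 1.14 in Suv39h1/2-DKO, 2.47 in G9a;Setdb1-DKO, 1.65 in G9a;Suv39h1/2-TKO, 0.73 in Suv39h1/2;Setdb1-TKO and 1.55 in G9a;Suv39h1/2;Setdb1-QKO. Dox1 replicate 2 of G9a-KO and of G9a;Setdb1-DKO was high in nuclear RNA. Titles of the lines that lack Setdb1 carry OHT and those of the others carry NT.

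The interaction, the difference between responses, was called in 2 of 13819 features against Suv39h1/2-DKO (0.0145%), in 0 against G9a;Setdb1-DKO (0%) and in 0 against G9a;Suv39h1/2-TKO (0%). At an unadjusted limma p below 0.05 the counts were 339, 836 and 199. The 2 are BC061212 and Gm7978, unnamed gene models with identical values in every library. BC061212 was at 52.6 and 87.1 TPM in dox1 libraries, against 0.975 and 1.19 TPM in dox0 libraries of G9a-KO, and at 5.35 and 6.03 TPM in dox1 and 0.0469 and 0.0947 TPM in dox0 libraries of Suv39h1/2-DKO (difference of log2 fold changes 2.40, SE 0.365, adjusted p = 0.0152). On the log2(TPM + 1) scale a gene that starts below 1 TPM loses part of its fold change, and the call was lost with a pseudocount of 0.1. It was also lost when any 1 of the 8 libraries other than dox1 replicate 1 of G9a-KO was left out. Over the 87 2-cell genes the response in G9a-KO exceeded that in Suv39h1/2-DKO by a median of 0.98, that in G9a;Setdb1-DKO by 0.56 and that in G9a;Suv39h1/2-TKO by 1.05, against medians of 0.07, 0.24 and 0.15 over all features. Without the 6 libraries high in nuclear RNA these medians were 0.20, 0.10 and 0.21, against 0.0023, 0.08 and 0.07 over all features. That setting leaves 1 library each of dox1 and dox0 in G9a;Setdb1-DKO, besides the 1 dox1 library in G9a-KO. In that setting the interactions gave 20 higher and 3 lower features against Suv39h1/2-DKO, 35 and 4 against G9a;Setdb1-DKO and 1 and 0 against G9a;Suv39h1/2-TKO. Of the 87 2-cell genes, 7 were among the higher ones against Suv39h1/2-DKO, 1 against G9a;Setdb1-DKO and 0 against G9a;Suv39h1/2-TKO. Against Suv39h1/2-DKO the 20 include Tdpoz1 (difference 2.07, SE 0.201, adjusted p = 0.000328), Tdpoz3 (1.99), Ubtfl1 (1.92), Zfp352 (1.67), Obox3 (1.39) and Obox4 (1.36), a choice made after their values were seen. The control and Setdb1-KO lines had dose label 0.2, and their responses, with 26 and 24 higher features, were not compared by a test. Titles of the G9a;Setdb1-DKO libraries carry OHT and those of G9a-KO carry NT. The part of this labelled difference in the interaction between these lines was not tested.

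The same genes were also read with and without Dux in separate libraries, of cells whose genotype labels name no Tet-on-Dux. There, cells that lack G9a, Suv39h1, Suv39h2 and Setdb1 (QKO) were compared with such cells that also lack Dux (Dux-KO QKO), 2 libraries each, a comparison chosen after the responses above were seen. The titles of both groups carry OHT. They name the QKO cells 3S1G and the Dux-KO QKO cells 3S1Gx, so the loss of Dux cannot be told apart from other differences between these lines. Of 13862 genes, 253 were lower in Dux-KO QKO (1.83%) and 653 were higher. Of the 132 features, 129 were tested there, and 109 of them were lower (84.5% of these 129 and 43.1% of the 253) and 0 higher, with a median log2 fold change of -2.92, against 0.22 over all genes. Zscan4c was at 0 and 0.479 TPM in Dux-KO QKO libraries, against 1101 and 1096 TPM in QKO libraries (log2 fold change -9.82, SE 0.154, adjusted p = 1.87e-15). Obox4 was at 40.2 and 40.8 TPM in Dux-KO QKO libraries, against 842 and 706 TPM in QKO libraries (log2 fold change -4.22, SE 0.142, adjusted p = 1.47e-11), and Zfp352 at 11.9 and 11.8 TPM in Dux-KO QKO libraries, against 111 and 107 TPM in QKO libraries (log2 fold change -3.10, SE 0.170, adjusted p = 4.89e-09). Zscan4c was almost absent in Dux-KO QKO libraries, while Obox4 and Zfp352 were lower but still present there. The 20 not lower include Tdpoz5, at 35.8 and 34.9 TPM in Dux-KO QKO libraries, against 39.7 and 42.0 TPM in QKO libraries, Duxbl2, at 17.3 and 19.3 TPM in Dux-KO QKO libraries, against 27.3 and 26.4 TPM in QKO libraries, and Fbxo15, a stem cell gene of the F-box family, at 849 and 845 TPM in Dux-KO QKO libraries, against 1172 and 1131 TPM in QKO libraries, the 3 chosen after their values were seen. The 2 tables were normalised separately, and no level was compared across them.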

How the data were processed

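Poly(A) RNA was sequenced from stranded TruSeq libraries, per the labels' protocols. Per the submitters' processing notes, the tools were RSEM 1.3.1, STAR 2.7.10b, SAMtools 1.9 and Bowtie2 2.3.4.1, with mm10, and no order of steps is stated. The authors deposited gene TPM, although the column notes also call them counts, and depth is unknown. From these values, log2(TPM + 1) was fitted with limma 3.58.1 (R 4.3.3, with data.table in version 1.17.8), with a variance trend, 16 groups of 2 libraries and 16 residual degrees of freedom. Features at 1 TPM or more in at least 2 of the 32 libraries were tested, 13819 of 24413 rows. Interactions were differences of responses in the same model. The Dux removal comparison, chosen after the data were seen, was fitted in the same way on its own table. All libraries of that table shared the estimate of the spread, not the compared ones alone.

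Members, gene lists and alternatives were chosen with earlier results of these data known, so they are no independent support. Genes named are Ehmt2, the transgene and reporter, the 10 largest rises and all falls without predicted names, up to 4 called and 2 uncalled members of each list, the called interaction genes, Neat1 and Snhg genes, or are said to be chosen later. Alternatives were a pseudocount of 0.1, other filters, median-ratio scaling, a replicate block, the Snhg level as a covariate, a fit on the compared libraries alone and libraries left out. Figures used Python 3.11.15, pandas 2.3.3 and matplotlib 3.10.9.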

Additional observations from a re-analysis of the deposited data

Results flagged for a closer look

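BC061212 and Gm7978 were flagged because their responses on the log2(TPM + 1) scale differed between 2 lines. The difference of their log2 fold changes between G9a-KO and Suv39h1/2-DKO was 2.40 for BC061212 and 2.40 for Gm7978 (limma interaction, adjusted p = 0.0152), and since the 2 have identical values in every library they are 1 measurement. Their own responses were 5.05 in G9a-KO and 2.64 in Suv39h1/2-DKO, and both lines were called higher. Without doxycycline BC061212 was at 0.0469 and 0.0947 TPM in Suv39h1/2-DKO, where the added 1 takes away part of the fold change. With a pseudocount of 0.1 the difference was not called. Against the other 2 lines tested at the same dose label the difference was -0.11 (G9a;Setdb1-DKO, adjusted p = 0.912) and 0.38 (G9a;Suv39h1/2-TKO, adjusted p = 0.993).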

How the results depend on the processing

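The count of 132 higher features was 143 with a pseudocount of 0.1, 120 with no filter on low values, 131 with a filter on the compared libraries, 158 with median-ratio scaling, 151 with the Snhg level as a covariate and 192 without the high nuclear RNA libraries of other groups. Fitted on the 4 libraries alone, which leaves 2 residual degrees of freedom, it was 11. Leaving out 1 of the 4 libraries gave 68 to 281. The 2 lower genes became 12 with a pseudocount of 0.1, 7 with the covariate, 0 in the 4 libraries alone, 19 without all 6 high nuclear RNA libraries and 2 to 6 with 1 library left out, where the 2 without dox1 replicate 1 hold neither Lypd2 nor Pwwp2b. A replicate block gave 162 higher and 2 lower. Deviations of dox1 replicate 1 and dox0 replicate 1 of the G9a-KO line from their group means correlated at 0.177. With 2 libraries per group, replicate 2 gives the same value by construction. The labels do not say that the replicate number marks a shared batch. Of the 30 higher and 2 lower genes named by the rule, the block ended no call.

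Against Suv39h1/2-DKO the 2 interaction calls became 0 with a pseudocount of 0.1, 6 higher and 1 lower with median-ratio scaling, 7 higher with the covariate, 0 in the compared libraries alone, 9 without the high nuclear RNA libraries of other groups, 20 higher and 3 lower without all 6, and 0 to 45 with 1 library left out. Against G9a;Setdb1-DKO they became 1 higher without the high libraries of other groups, 35 higher and 4 lower without all 6, and 0 to 2 with 1 left out. Against G9a;Suv39h1/2-TKO they became 1 higher without all 6, and 0 to 2 lower with 1 left out. The count of 109 for Dux removal lay between 106 and 112 in all its alternatives. The cause of these shifts was not tested. Read depth is unknown, so what it limits cannot be given.

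None of the 30 higher and 2 lower genes named by the rule changed direction under any alternative run. With 1 library left out, those higher genes that lost their call at least once were MERVL-sfGFP, Tdpoz4, Tdpoz5, Tcstv3, Gm4340, Gm13043, Duxbl2 and Magel2. Genes named after their values were seen are not among these. Log2 fold changes of uncalled named genes that changed sign with the covariate were Setdb1 -0.23, Suv39h1 -0.13, AU018091 0.030, P4ha2 -0.34, Trp53 0.23, Kdm5b 0.036, Pou5f1 -0.072, Sparc -0.044, Igf2bp3 0.048, Atf4 -0.33, Shmt2 0.16, Bst2 -0.071, Snhg1 -0.57, Snhg6 -0.25, Ccnd3 0.089, Rps18 0.081, Rplp1 0.18, Psmb3 0.033, Psmb5 0.020, Neat1 -0.32, Snhg11 -0.0035, Snhg17 -0.52, Snhg20 -0.32, Snhg7 -0.45. Without all 6 high nuclear RNA libraries they were Ehmt2 -0.10, Setdb1 -0.012, Suv39h1 -0.014, AU018091 0.055, P4ha2 -0.38, Trp53 0.29, Pou5f1 -0.032, Sparc -0.21, Peg10 -0.017, Igf2bp3 0.13, Atf4 -0.10, Shmt2 0.29, Bst2 -0.029, Snhg1 -0.59, Snhg6 -0.24, Ccnd3 0.16, Rps18 0.093, Rplp1 0.12, Psmb3 0.073, Psmb5 0.021, Thy1 -0.022, Neat1 -0.12, Snhg14 -0.22, Snhg17 -0.45, Snhg20 -0.017, Snhg5 -0.057, Snhg7 -1.03. With 1 of the 4 libraries left out, those that changed sign at least once ranged as follows: Ehmt2 -0.10 to 0.79, Setdb1 -0.15 to 0.19, Suv39h1 -0.014 to 0.20, AU018091 -0.40 to 0.13, P4ha2 -0.38 to 0.64, Trp53 -0.39 to 0.29, Kdm5b -0.30 to 0.19, Dppa5a -0.22 to 0.036, Pou5f1 -0.032 to 0.23, Sparc -0.21 to 0.39, Peg10 -0.028 to 0.15, Igf2bp3 -0.29 to 0.14, Ccng1 -0.41 to 0.083, Atf4 -0.10 to 0.49, Shmt2 -0.57 to 0.29, Bst2 -0.029 to 0.35, Snhg1 -0.59 to 0.70, Snhg6 -0.24 to 0.29, Rpl10l -0.30 to 0.17, Ccnd3 -0.41 to 0.16, Rps18 -0.18 to 0.093, Rplp1 -0.22 to 0.12, Psmb3 -0.38 to 0.073, Psmb5 -0.48 to 0.021, Thy1 -0.022 to 0.56, Acta2 -0.15 to 0.59, Neat1 -0.12 to 3.21, Snhg14 -0.22 to 2.56, Snhg17 -0.45 to 2.04, Snhg20 -0.017 to 2.56, Snhg5 -0.057 to 3.19, Snhg7 -1.03 to 3.25.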

Other observations

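Some called genes lie outside the lists, and those named here were chosen after their values were seen. Of 62 tested genes whose symbol begins with Hist, 6 were higher with doxycycline, against 132 of all 13819 features (0.955%). Most messages of replication-dependent histone genes lack the poly(A) tail that the libraries select. Hist1h3c, which encodes histone H3, was at 37.9 and 52.6 TPM in dox1 libraries, against 12.1 and 14.9 TPM in dox0 libraries (log2 fold change 1.66, SE 0.347, adjusted p = 0.0146, limma), and Hist1h2bh at 6.79 and 15.9 TPM in dox1 libraries, against 0 and 0.667 TPM in dox0 libraries. Cebpa, a transcription factor of fat and myeloid cells, was at 6.87 and 6.50 TPM in dox1 libraries, against 1.77 and 2.69 TPM in dox0 libraries (log2 fold change 1.26, SE 0.233, adjusted p = 0.00437), and Dll1, a Notch ligand, at 9.65 and 10.7 TPM in dox1 libraries, against 3.69 and 4.48 TPM in dox0 libraries (log2 fold change 1.14, SE 0.246, adjusted p = 0.0200). In these 2 genes the dox1 libraries were close to each other. Fbxo15 was the called gene of the highest level without doxycycline, at 585 and 1386 TPM in dox1 libraries, against 336 and 398 TPM in dox0 libraries (log2 fold change 1.3, SE 0.292, adjusted p = 0.0286). Receptor genes were also called: Drd3, a dopamine receptor, at 3.05 and 3.73 TPM in dox1 libraries, against 0.252 and 0.682 TPM in dox0 libraries, and Chrm3, a muscarinic receptor, at 5.48 and 18.4 TPM in dox1 libraries, against 1.17 and 1.03 TPM in dox0 libraries. Of the called genes, 19 averaged at least 10 TPM without doxycycline. The largest negative log2 fold change of all, -3.98 for Eif3j1, was not called (adjusted p = 0.613).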
